A study of Mus musculus with 9 samples.

Results

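DNA replication and S-phase genes were followed in mouse ovaries as a list of 39 symbols, taken from the machinery that licenses, unwinds, copies and repackages DNA. All 39 were found, 1 line each, among the 19517 genes of the authors' deposited table of comparisons. The mice were BALB/c nude females, which lack a thymus and normal T cells, and in all groups they bore tumours grown from MDA-MB-231, a human cell line of breast cancer. UT mice were left untreated, CTX mice were given cyclophosphamide, an alkylating drug that crosslinks DNA and harms dividing cells, and CAU mice are labelled with caulerpin, an indole alkaloid of green algae. Whether the CAU mice also had cyclophosphamide is not in the labels, and dose, duration and age are not stated in the labels. Each group had 3 libraries, 9 in all, numbered as replicates with no mouse named, so the p-values reflect how far these samples vary, part of which may be technical.

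Replication starts in G1, when the origin recognition complex, CDC6 and CDT1 load the MCM helicase onto DNA, and fires in S phase, when CDC45 and the GINS complex switch the helicase on. Polymerase alpha with primase lays down primers, polymerases epsilon and delta extend them around the PCNA clamp, and FEN1 and DNA ligase 1 join the lagging strand. Cyclin E and the E2F factors drive entry into S phase and the transcription of many of these genes. In the ovary, granulosa cells of growing follicles are the main dividing cells.

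For each gene and each pair of groups the authors' deposited table holds the log2 fold change with its DESeq2 p-value, raw and adjusted over all genes. Values per library were not used here, so the overlap of single ovaries was not examined, and the depth of the libraries is unknown. Beside each log2 fold change stands a standard error (SE) worked back from its p-value, and 95% intervals are built from that SE with a normal distribution. A gene counts as changed at an adjusted p under 0.05. The headers do not say which group is the numerator. A column was taken to give the later-named group relative to the earlier-named one, and all directions would turn together if that were wrong.

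In CTX ovaries nearly all replication genes had small positive fold changes. Of the 39 genes 38 had a log2 fold change above 0 against UT, where 44.2% of all 19260 tested genes did, and the median was 0.28, or 1.22-fold, against -0.03 for all genes. Mcm4, a subunit of the helicase, and Uhrf1, which brings the maintenance DNA methyltransferase to newly copied DNA, were the 2 genes that rose, while 0.472% of all genes were called higher. None of the 39 fell, where 0.82% of all genes did. At an unadjusted p under 0.05, 21 of the 39 were higher and 0 lower, against 4.42% of all genes higher and 5.79% lower. These genes were measured more precisely than most (median SE 0.15 against 0.21). Among the genes with an SE no larger than the largest of the 39, 7.19% were higher and 5.3% lower at an unadjusted p under 0.05, and 55.4% were above 0. After centring on the median of all genes, 5 of the 39 were called higher in place of 2, and the calls over all genes went from 91 higher and 158 lower to 156 higher and 134 lower.

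Uhrf1 (gene ID 18140, chr17:56303321-56323486, plus strand, build GRCm38) was at 0.41 in CTX against UT per the authors' deposited table (SE 0.10, adjusted p = 0.00361). Its log2 fold change per the authors' deposited table was 0.33 in CAU against UT (SE 0.16) and -0.09 in CAU against CTX (SE 0.14). Mcm4 (gene ID 17217, chr16:15623897-15637400, minus strand) was at 0.41 in CTX against UT (SE 0.11, adjusted p = 0.0271) per the authors' deposited table. For Mcm4 the authors' deposited table gives 0.41 again in CAU against UT (SE 0.19) and -0.01 in CAU against CTX (SE 0.16). Both genes were thus 1.33-fold higher in CTX, and neither passed in the other comparisons, where each had an adjusted p close to 1.

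**Figure D1:**
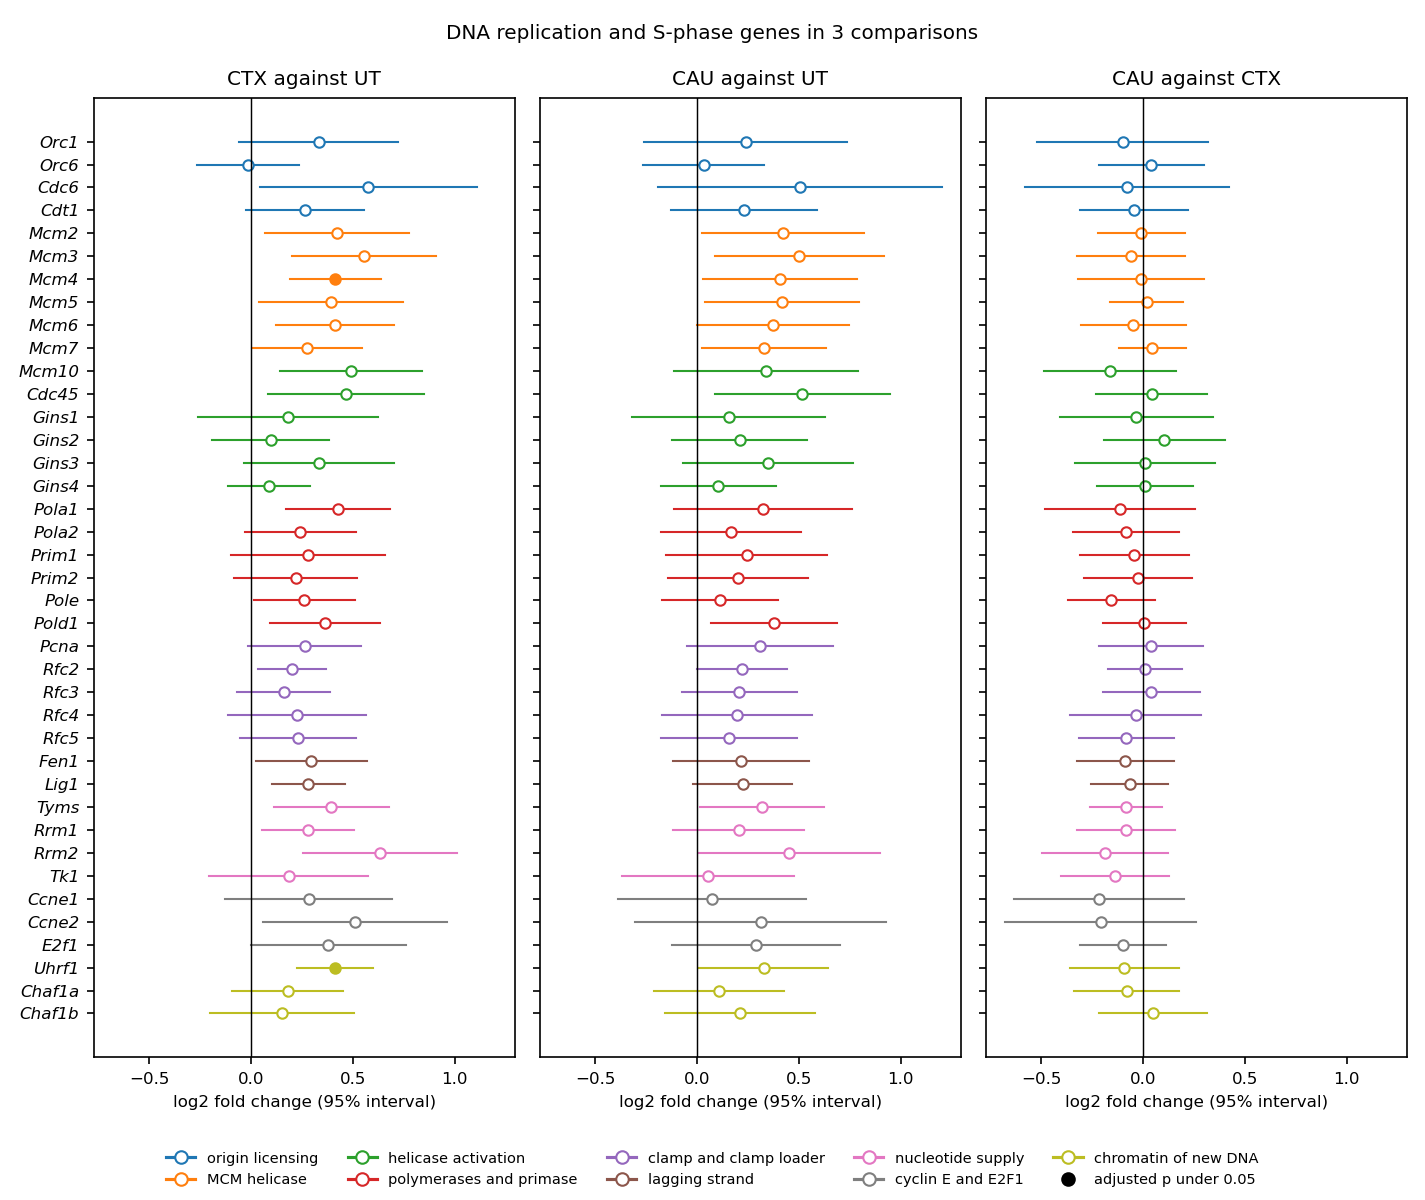
Log2 fold change (points) and 95% interval (lines) of each of the 39 replication genes, coloured by role, in CTX against UT, CAU against UT and CAU against CTX; filled points have an adjusted p under 0.05. All but Orc6 lie to the right of 0 in the first panel and all 39 in the second, and in the third the points lie between -0.22 and 0.10.

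By role, the MCM helicase had the highest median against UT. Cyclin E and E2F1 followed in CTX at 0.38 (median SE 0.21), so no order among the roles is shown. All 6 subunits of the hexamer that unwinds the duplex were higher in CTX at an unadjusted p under 0.05, with a median log2 fold change of 0.41. In the authors' deposited table Mcm3 was at 0.55 (SE 0.18, adjusted p = 0.0978), the highest of the 6. The authors' deposited table gives 0.42 for Mcm2 (SE 0.18), 0.39 for Mcm5 (SE 0.18), 0.41 for Mcm6 (SE 0.15) and 0.28 for Mcm7 (SE 0.14), the lowest. The intervals of all 6 overlap, so no order among the subunits is shown.

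The factors that load the helicase were less uniform. Cdc6, the loading ATPase, was at 0.58 per the authors' deposited table (SE 0.27), and Orc1, the large ATPase subunit of the origin recognition complex, at 0.33 (SE 0.20). Cdt1, which escorts the helicase to origins, was at 0.27 (SE 0.15) per the authors' deposited table. Orc6, the smallest subunit of the origin recognition complex, was the single gene of the 39 below 0, at -0.02 (SE 0.13) per the authors' deposited table, and its 95% interval ran from -0.27 to 0.24. Its value per the authors' deposited table was 0.03 in CAU against UT (SE 0.15) and 0.04 in CAU against CTX (SE 0.13).

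Among the factors that activate the helicase, Mcm10 and Cdc45 had higher values than the GINS subunits, but the 95% intervals overlap, so no order is shown. Mcm10, which helps to open the origin, was at 0.49 per the authors' deposited table (SE 0.18), and Cdc45, which joins MCM and GINS in the active helicase, at 0.47 (SE 0.20). The 4 GINS genes had smaller values per the authors' deposited table, with Gins3 at 0.33 (SE 0.19), Gins1 at 0.18 (SE 0.22), Gins2 at 0.10 (SE 0.15) and Gins4 at 0.09 (SE 0.10). None of the 4 had an unadjusted p under 0.05. Gins4, the most precise of them, was at 0.10 in CAU against UT (SE 0.14) and 0.01 in CAU against CTX (SE 0.12) per the authors' deposited table.

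All 6 polymerase and primase genes had positive values, with a median of 0.27. Pola1, the catalytic subunit of polymerase alpha, was at 0.43 per the authors' deposited table (SE 0.13, adjusted p = 0.0682), and its partner subunit gene Pola2 at 0.24 (SE 0.14). The primase genes Prim1 and Prim2 were at 0.28 (SE 0.19) and 0.22 (SE 0.15) per the authors' deposited table. Pold1, the catalytic subunit of the lagging-strand polymerase delta, was at 0.36 (SE 0.14) and Pole, that of the leading-strand polymerase epsilon, at 0.26 (SE 0.13) per the authors' deposited table. For Pole the authors' deposited table lists 0.11 in CAU against UT (SE 0.14) and -0.16 in CAU against CTX (SE 0.11).

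Those of the 39 genes that encode the clamp and its loader had values in a narrow range, from 0.16 to 0.26. Pcna, the sliding clamp, was at 0.26 per the authors' deposited table (SE 0.14). Of the loader subunits, the authors' deposited table gives Rfc5 at 0.23 (SE 0.14), Rfc4 at 0.23 (SE 0.17), Rfc2 at 0.20 (SE 0.09) and Rfc3 at 0.16 (SE 0.12). Rfc2, which has the smallest SE of all 39, was the one of these 5 with an unadjusted p under 0.05, and per the authors' deposited table it was at 0.22 in CAU against UT (SE 0.11) and 0.01 in CAU against CTX (SE 0.09). On the lagging strand, Lig1, the ligase that seals nicks, was at 0.28 (SE 0.09, adjusted p = 0.0914) and Fen1, the flap nuclease, at 0.30 (SE 0.14) per the authors' deposited table. In the other comparisons Lig1 was at 0.22 in CAU against UT (SE 0.12) and -0.07 in CAU against CTX (SE 0.10) per the authors' deposited table.

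Genes that supply nucleotides included the largest value of the list. Per the authors' deposited table Rrm2, the regulatory subunit of ribonucleotide reductase whose level follows S phase, was 1.55-fold higher in CTX, at 0.63 (SE 0.19, adjusted p = 0.0682), and it was the single gene above 1.5-fold. Its catalytic partner Rrm1 was at 0.28 (SE 0.12) per the authors' deposited table, and Tyms, which makes thymidylate, at 0.39 (SE 0.14). Tk1, the S-phase thymidine salvage kinase, was at 0.18 (SE 0.20) per the authors' deposited table. Rrm1 was at 0.20 in CAU against UT (SE 0.16) and -0.09 in CAU against CTX (SE 0.12) per the authors' deposited table.

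The drivers of S-phase entry were measured with less precision. Ccne2 and Ccne1, the E-type cyclins, were at 0.51 (SE 0.23) and 0.28 (SE 0.21) per the authors' deposited table. E2f1, an activating E2F factor, was at 0.38 (SE 0.19) per the authors' deposited table. Its values were 0.29 in CAU against UT (SE 0.21) and -0.10 in CAU against CTX (SE 0.11) per the authors' deposited table. Chaf1a and Chaf1b, subunits of the chaperone that deposits histones behind the fork, were at 0.18 (SE 0.14) and 0.15 (SE 0.18) per the authors' deposited table, below Uhrf1 in the same group.

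Promoters were searched for a letter pattern, the E2F site, since E2F factors are known to drive many of these genes and nearly all of the 39 had values of one sign against UT. Windows of 300 bases, 250 before the RefSeq start and 50 after it (build GRCm38.p6), were held for 31 of the 39 genes, and for 15417 genes of the deposited table. Mcm4, which rose, had no window and was not searched. The core of the E2F site was searched as TTCCCGC or TTGGCGC or TTCGCGC or TTGCCGC on either strand, with overlapping matches joined into 1. It was in a window of 20 of the 31 genes (64.5%), of 15.5% of the genes in the deposited table and of 10.9% of all genes with a window. In 15 of the 20 genes a core lay wholly before the start, and in the other 5 the first core began after that point. A match describes letters and is not evidence of binding. Among the genes with a window, Uhrf1 rose, and Pola1 and Rrm2 had the next lowest adjusted p. Lig1 and Mcm3 came next, but their cores began after the start and are not shown. Mcm5 and Mcm6, helicase subunits that are also shown, had a higher adjusted p (0.408 and 0.162). The stretches below lie upstream of the start in 5 genes, Uhrf1, Pola1, Rrm2, Mcm5 and Mcm6. They are written 5′ to 3′ on the gene's strand, with E2F cores in capitals.
Uhrf1, chr17:56303269-56303315, plus strand: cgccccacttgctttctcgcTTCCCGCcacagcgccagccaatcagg
Pola1, chrX:93632250-93632344, minus strand: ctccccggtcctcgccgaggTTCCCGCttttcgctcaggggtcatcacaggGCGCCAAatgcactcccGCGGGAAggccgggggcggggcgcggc
Rrm2, chr12:24708004-24708045, plus strand: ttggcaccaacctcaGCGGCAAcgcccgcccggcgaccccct
Mcm5, chr8:75109325-75109386, plus strand: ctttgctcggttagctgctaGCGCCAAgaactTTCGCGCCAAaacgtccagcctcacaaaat
Mcm6, chr1:128359722-128359834, minus strand: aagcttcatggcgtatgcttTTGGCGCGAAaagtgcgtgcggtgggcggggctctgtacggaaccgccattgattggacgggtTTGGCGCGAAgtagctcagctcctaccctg

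Pola1 shows 3 cores within 95 bases, in both orientations, and Mcm6 shows the same 10-base run of joined cores at 2 places. The Uhrf1 core shown lies within 50 bases of the start. Another Uhrf1 window, with a different start, holds a core at position -184 from that start, which is not shown. Genes with and without the core overlapped in their values. The 20 genes with it had a median log2 fold change of 0.31 in CTX against UT (range 0.15 to 0.63), and the 11 without it a median of 0.28 (range -0.02 to 0.49). In CAU against UT the medians were 0.28 with it and 0.29 without it. The 8 genes with no window had a median of 0.21 in CTX against UT. The 11 genes without the core were Ccne1, Cdc45, E2f1, Mcm10, Mcm2, Orc6, Pcna, Pola2, Rfc5, Tk1 and Tyms.

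Motifs linked with genes of later cell cycle phases were counted in the same windows. The CHR element, searched as TTTGAA or TTCGAA on either strand, was in 6 of the 31 replication genes (19.4%), against 18.2% of the genes in the deposited table. The CCAAT box, searched as CCAAT on either strand, was in 18 of the 31 (58.1%), against 42.4%. In 17 mitosis genes with a window, the CHR element was in 13 (76.5%), the CCAAT box in 14 (82.4%) and the E2F core in 3 (17.6%).

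**Figure D2:**
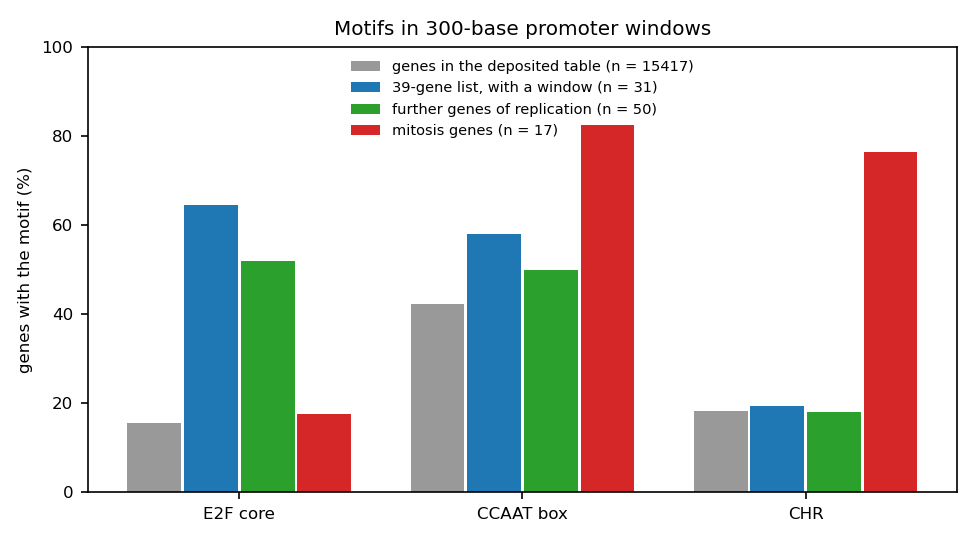
Share of genes (percent) with at least 1 match of each motif in a promoter window, for all genes of the deposited table that have a window, the 31 genes of the replication list that have one, 50 further genes of replication and 17 mitosis genes. The E2F core is in 64.5% and 52% of the 2 replication lists and in 17.6% of the mitosis genes, and the CHR element in 19.4%, 18% and 76.5%.

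Several replication genes start close to a gene of another function on the other strand, so the values of both can be set side by side. In the GENCODE M21 annotation, 14 of the 39 genes had a gene on the other strand starting within 1000 bases, and for 9 of these the neighbour was in the deposited table. Mcm7, Orc6, Tk1, Cdc45 and Fen1 also overlap this neighbour. Reads of such shared stretches cannot be assigned to either gene without strand. In CTX against UT the 9 replication genes had a median log2 fold change of 0.28, with 8 above 0, while their neighbours had a median of -0.03, with 4 above 0. Of all tested genes, 44.2% were above 0 in this comparison, and 4.42% were higher and 5.79% lower at an unadjusted p under 0.05. At that p, 5 of the 9 replication genes and 1 of the 9 neighbours differed.

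That neighbour was Prkdc, the catalytic subunit of DNA-dependent protein kinase in double-strand break repair, which starts 466 bases from Mcm4. It was at 0.26 (SE 0.10, adjusted p = 0.259) per the authors' deposited table, next to 0.41 for Mcm4. Ufd1, a cofactor in protein degradation that starts 208 bases from Cdc45, was at 0.01 (SE 0.12) per the authors' deposited table, next to 0.47 for Cdc45. Prpf38a, a splicing factor gene 87 bases from the start of Orc1, was at -0.10 (SE 0.10) per the authors' deposited table, next to 0.33 for Orc1. The difference within pairs was not tested, since the table has no values per library.

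**Figure D3:**
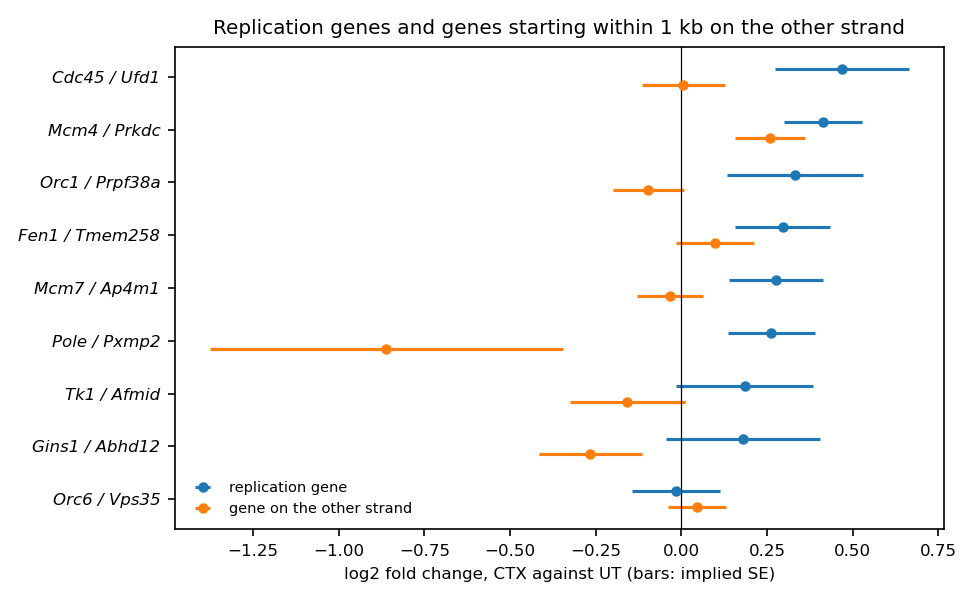
Log2 fold change in CTX against UT (points) with the implied SE (bars) for 9 replication genes and the gene starting within 1 kb of each on the other strand. The replication gene lies to the right of its neighbour in all pairs but Orc6 with Vps35, and the neighbours run from -0.86 (Pxmp2, beside Pole) to 0.26 (Prkdc, beside Mcm4).

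Some of these genes overlap another on the opposite strand, and no source used here gives the strand setting of the counting. Of the 39 genes 17 overlap such a gene, and for 12 of them it is in the deposited table (Ccne2, Rfc5, Rfc2, Mcm7, Lig1, Orc6, Gins2, Tk1, Cdc45, Rfc4, Chaf1a and Fen1). Reads of the shared stretches cannot be assigned to one of the 2 genes without strand. Pcna and Tyms also have processed pseudogenes named after them, and their values are uncertain to that extent.

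CAU ovaries had replication genes above UT by nearly as much as CTX ovaries, with wider errors. All 39 had a log2 fold change above 0, where 47.8% of all 19302 tested genes did, and the median was 0.24, or 1.18-fold. With DESeq2, 0 of the 39 were called higher and 0 lower, and in all genes 0.0311% and 0.0207% were. At an unadjusted p under 0.05, 10 of the 39 were higher and 0 lower, against 1.2% of all genes higher and 2.26% lower. Among the genes with an SE no larger than the largest of the 39, 1.81% were higher, 2.6% lower and 53.2% above 0. All 10 were also among the 21 with an unadjusted p under 0.05 in CTX against UT, a comparison that shares the UT libraries. The SE was the largest of the 3 comparisons for all 39 genes, with a median of 0.19 against 0.15 in CTX against UT.

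The 10 genes were Mcm2, Mcm3, Mcm4, Mcm5, Mcm7, Cdc45, Pold1, Tyms, Rrm2 and Uhrf1, so 5 of the 6 helicase subunits were among them. In the authors' deposited table Cdc45 had the largest value, 0.52 (SE 0.22), followed by Cdc6 at 0.50 (SE 0.36) and Mcm3 at 0.50 (SE 0.21). The MCM helicase again had the highest median of the 9 roles, 0.41, and its values ran from 0.33 (Mcm7) to 0.50 (Mcm3). Cyclin E and E2F1 followed at 0.29 (median SE 0.24), so again no order among the roles is shown. The lowest values per the authors' deposited table were those of Orc6, at 0.03, Tk1, at 0.05 (SE 0.21), and Ccne1, at 0.08 (SE 0.24).

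Between CAU and CTX no replication gene passed the test. With DESeq2, 0 of the 39 were called in either direction, against 0.312% of all genes higher and 0.13% lower. At an unadjusted p under 0.05 there were also 0 higher and 0 lower, against 3.32% and 2.04% of all 19245 tested genes, and against 1.92% and 3.21% of the genes with an SE no larger than the largest of the 39. The median log2 fold change was -0.05, or 0.967-fold, with 12 genes above 0, where 52.3% of all genes and 43.7% of the equally precise genes were. For 35 of the 39 the whole 95% interval lay between -0.5 and 0.5, so for these a difference of that size was outside the interval. The 4 others were Orc1, Cdc6, Ccne1 and Ccne2, whose intervals reached -0.52, -0.58, -0.63 and -0.68. Of all 19245 tested genes, 9462 had an interval within the same limits. These limits are wider than the median of 0.28 in CTX against UT, so smaller differences can lie inside the intervals. The interval of Rrm1, for example, reached -0.33, and its value in CTX against UT was 0.28.

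The lowest values of this comparison belonged to the E-type cyclins, at -0.22 for Ccne1 (SE 0.21) and -0.21 for Ccne2 (SE 0.24) per the authors' deposited table, and to Rrm2 at -0.19 (SE 0.16). The MCM subunits ran from -0.06 (Mcm3) to 0.04 (Mcm7), with a median of -0.01. Gins2 had the highest value, 0.10 (SE 0.15) per the authors' deposited table. All 3 pairs of groups share libraries, so the 3 sets of values are not independent, and for all 39 genes CTX against UT plus CAU against CTX came within 0.01 of CAU against UT, apart from a constant of -0.01.

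Genes of mitosis, the later phase of the same cycle, were set beside the replication genes in all 3 comparisons. Of 20 mitosis genes, 20 were above 0 in CTX against UT (median 0.45), where Bub1, Mki67, Cenpf and Top2a, 4 genes, rose, and 20 were above 0 in CAU against UT (median 0.19). In CAU against CTX all 20 were below 0 (median -0.26), and 12 of them had an unadjusted p under 0.05, though 0 were called by DESeq2. Of all genes, 2.04% were lower at that p. Of the 39 replication genes 27 were below 0 there. The values of the lists overlapped, from -0.37 to -0.14 for mitosis and from -0.22 to 0.10 for replication. Mki67, the gene of the proliferation antigen Ki-67, was at 0.45 in CTX against UT (SE 0.12, adjusted p = 0.0284) and -0.33 in CAU against CTX (SE 0.10, adjusted p = 0.130) per the authors' deposited table. The difference between the mitosis and the replication list was not tested.

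**Figure D4:**
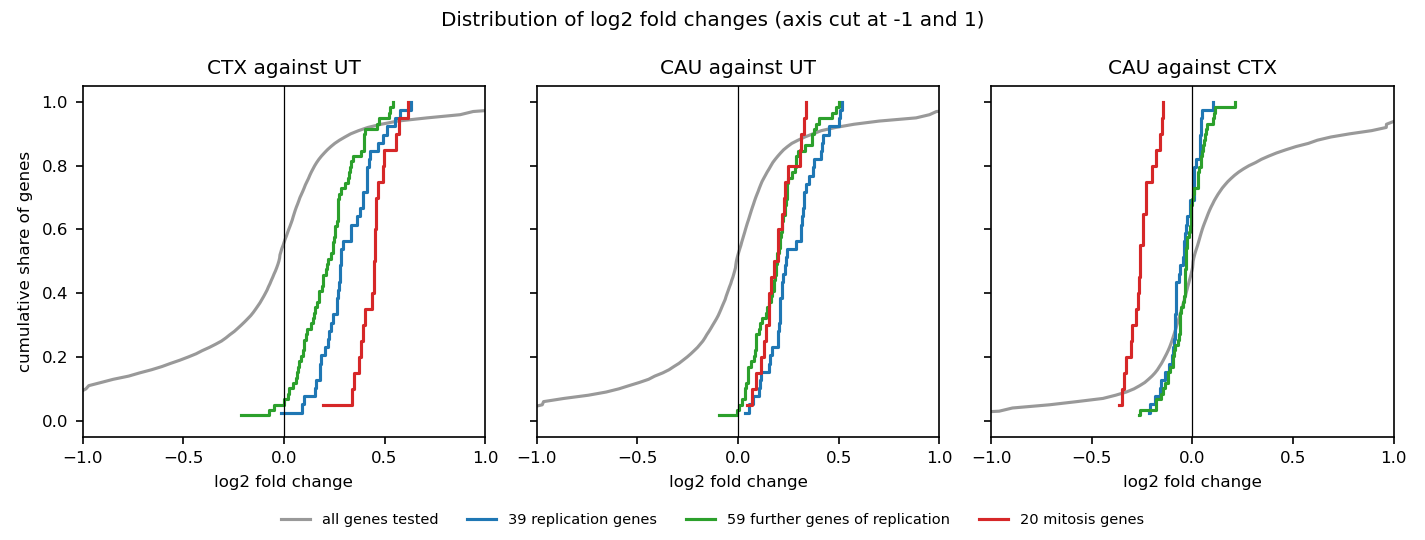
Cumulative share of genes (vertical axis) by log2 fold change (horizontal axis, cut at -1 and 1) for all tested genes, the 39 replication genes, 59 further genes of replication and 20 mitosis genes. The 39 and the 59 replication genes have medians of 0.28 and 0.22 in CTX against UT, 0.24 and 0.19 in CAU against UT, and -0.05 and -0.03 in CAU against CTX, where the mitosis curve lies between -0.37 and -0.14.

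The rest of the replication machinery was described with 59 further genes, chosen by function. In CTX against UT 56 of the 59 were above 0 (median 0.22), 20 were higher and 0 lower at an unadjusted p under 0.05, and 1 rose. This was Asf1b, a histone chaperone that hands histones to the assembly factor of Chaf1a and Chaf1b, at 0.54 (SE 0.15, adjusted p = 0.0370) per the authors' deposited table. Dnmt1, the maintenance methyltransferase recruited by the Uhrf1 product, was at 0.33 (SE 0.10, adjusted p = 0.0685) per the authors' deposited table. In CAU against UT 57 were above 0 (median 0.19), and DESeq2 called 0, with 2 at an unadjusted p under 0.05, Mcm8 among them. Mcm8, a helicase of meiotic and break repair, was at 0.47 (SE 0.18, adjusted p = 0.913) per the authors' deposited table. In CAU against CTX 18 were above 0 (median -0.03), and DESeq2 called 0, with 0 at an unadjusted p under 0.05.

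Among 30 genes of the E2F family, their pocket protein partners and the kinases of G1 and S, 25 were above 0 in CTX against UT (median 0.16). Cdkn1a, which encodes p21, an inhibitor of cyclin E kinase and of PCNA, was the 1 gene called. It rose by 1.99 on the log2 scale (SE 0.32, adjusted p = 9.15e-07) per the authors' deposited table, in the comparison in which its targets' genes Ccne1, Ccne2 and Pcna were at 0.28, 0.51 and 0.26. In CAU against CTX Cdkn1a fell by 1.41 on the log2 scale (SE 0.24, adjusted p = 6.35e-06) per the authors' deposited table, while no replication gene passed. The repressors E2f7 and E2f8, themselves made in S phase, were at 0.67 (SE 0.23) and 0.69 (SE 0.22, adjusted p = 0.0840) in CTX against UT per the authors' deposited table. Ccnd2, the cyclin D of granulosa cells, was at 0.31 (SE 0.09, adjusted p = 0.0670) in CTX against UT and at -0.38 (SE 0.12, adjusted p = 0.201) in CAU against CTX per the authors' deposited table. In CAU against UT 22 of the 30 were above 0 and DESeq2 called 0, with 1, Rbl1, at an unadjusted p under 0.05. In CAU against CTX 24 of the 30 were below 0 (median -0.09), with Cdkn1a called lower and 2, Cdkn1a and Ccnd2, lower at an unadjusted p under 0.05.

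Markers of some ovarian cell types moved in the same comparisons. In whole tissue, fewer cells of a type and less RNA per cell cannot be told apart. All 10 granulosa markers were above 0 in CTX against UT (range 0.14 to 1.20, median 0.52, with Inhba, Inhbb and Fst, 3 genes, called higher) and in CAU against UT (range 0.03 to 1.10, median 0.35), and 3 of 10 were above 0 in CAU against CTX (median -0.16), where Inhbb was called lower. All 8 macrophage markers were below 0 in CTX against UT (range -1.29 to -0.23, 5 called lower, median -0.96) and in CAU against UT (median -0.50), and 7 of the 8 were above 0 in CAU against CTX (median 0.41), where C1qb and C1qc, 2 genes, were called higher. The 9 oocyte markers had medians of 0.12, 0.03 and -0.11 in CTX against UT, CAU against UT and CAU against CTX. No oocyte, theca, luteal, endothelial or erythroid marker was called in any comparison. In CTX against UT 2 of 5 theca, 1 of 3 luteal, 2 of 4 endothelial and 0 of 3 erythroid markers were above 0. Their medians there were -0.19, -0.72, -0.10 and -1.24, with median SEs of 0.75, 0.59, 0.12 and 0.65. The 5 T and NK cell markers were all below 0 in CTX against UT (median -2.27, median SE 1.15), where Ncr1 and Gzma, 2 genes, were called lower. In CAU against CTX 4 of the 5 were above 0 (median 2.18, median SE 1.08), and the same 2 genes were called higher. In CAU against UT the median of the 5 was -0.07 (median SE 0.91). The 4 surface epithelium markers were all below 0 in CTX against UT (median -1.39, median SE 0.50, with Upk3b called lower). They were all above 0 in CAU against CTX (median 0.85, median SE 0.45), where DESeq2 called 0, with 3 at an unadjusted p under 0.05. In CAU against UT their median was -0.35. Whether these shifts take part in the values of the replication genes was not tested. The table gives no levels, so the tissue label could not be checked beyond the presence of all 10 granulosa and all 9 oocyte markers among the tested genes.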

How the data were processed

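Ovarian RNA was sequenced from 9 libraries, 3 per group. Build GRCm38.p6, the aligners HISAT2 and Bowtie2, and the programs DESeq2 (1.44.0) and RSEM (1.3.1) appear in the submitters' processing notes with no role stated. Per the file headers, the authors deposited, per gene and comparison, the log2 fold change with the p-value and q-value (here adjusted p) of DESeq2. Recomputing the adjustment gave values within 7.74e-05 of the deposited ones.

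The implied SE is the absolute log2 fold change over the z of its p-value, assuming an unshrunken Wald test. Because the table holds no counts, no count test was refitted. Every gene of the list is named, with all 3 comparisons for called genes and the most precise gene of each role. For other lists, called genes or the most precise ones were to be named; others named there were chosen after their values were seen. The genes and lists were chosen with earlier results of these data known. Annotation was GENCODE M21, and promoters came from the RefSeq tables. Scripts, tested on simulated data, used Python 3.11.15 with scipy 1.17.1, matplotlib 3.10.9, pandas 2.3.3 and numpy 2.4.6. Alternatives were 2 other thresholds, a filter on SE, centring on the median of all genes and scaling of z. Of the further replication list, only Asf1b, Dnmt1 and Mcm8 are reported here by name.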

Additional observations from a re-analysis of the deposited data

How the results depend on the processing

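The number of replication genes called higher in CTX against UT was 2 at the main setting, 6 at a threshold of 0.10, 1 at 0.01 and 5 after centring on the median of all genes, where Rrm2 (adjusted p = 0.0470), Pola1 (adjusted p = 0.0409) and Lig1 (adjusted p = 0.0471) joined Uhrf1 and Mcm4. Centring also turned Orc6 from -0.02 to 0.0097. The further genes of replication called higher were 1 at the main setting, 2 at 0.10, 0 at 0.01 and 2 with centring in CTX against UT, and in CAU against UT they were 0, or 1 with z scaled to a spread of 1. That scaling, from a robust spread of 0.711, raised the calls over all genes in CAU against UT. They went from 6 higher and 4 lower to 85 higher and 170 lower. The scaling still called 0 of the 39 replication genes, though Pold1 (adjusted p = 0.0532), Mcm3 (0.0540) and Cdc45 (0.0574) came close. In CAU against CTX it raised the calls over all genes from 60 higher and 25 lower to 153 higher and 84 lower, again with 0 of the 39. No other count of called replication genes moved, and the 3 medians moved by less than the median SE under the filter and under centring. No paired analysis was possible because the table holds no values per library, and leaving out a library was not run for the same reason. Sequencing depth is unknown, so what it limits was not assessed.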

Other observations

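Replication-dependent histone genes, whose messages are made in S phase and mostly lack a poly(A) tail, could not be read with useful precision. The table holds 59 of them by symbol, and the median implied SE was 2.01 in CTX against UT, where it was 0.15 for the 39 replication genes. Of 58 tested in CTX against UT, 32 were above 0 (median 0.16), and DESeq2 called 0, with 0 at an unadjusted p under 0.05. In CAU against UT 37 of 58 were above 0 (median 0.22), DESeq2 called 0, and 1, H3c14, had an unadjusted p under 0.05 and stood at 6.70 with a wide SE of 2.40 per the authors' deposited table. In CAU against CTX 32 of 57 were above 0 (median 0.09), DESeq2 called 0, and 0 had an unadjusted p under 0.05. The 2 most precise of these genes in CTX against UT were H2ac24 at -0.04 (SE 0.18) and H2bc21 at 0.34 (SE 0.19) per the authors' deposited table, and counts of near-identical histone copies are uncertain where reads could fall to either.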
